A study of Mus musculus with 15 samples.

Results

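The genes described here encode enzymes of cholesterol synthesis, chosen by gene symbol from 8 names: Hmgcs1, Idi1, Fdps, Fdft1, Sqle, Lss, Cyp51 and Dhcr7. Of these 8, 6 had a probe on the bead arrays, with 7 probes in all because Sqle had 2, out of 10474 genes tested. Hmgcs1 and Fdft1 are not analysed here. RNA came from unsorted spleen cells of mice of a Cbx7-overexpression model, a model in which a polycomb protein is overproduced. Of 12 mice with a type label, 1 had an undifferentiated leukemia (mouse 4-3), 4 had an erythroid leukemia (mice 2-3, 5-5, 2-3-2 and 2-3-3) and 7 had a T-cell leukemia (mice 2, 5, 4-1, 2-2, 5-1, 4-2 and 5-3). Mice 5-5 and 5-1 were each run on 2 arrays, which were averaged. All mice overexpress Cbx7, so no level from mice without it stands beside any value. The labels name no strain, age or driver of the overexpression. The labels do not say what the numbers in the names mark, nor that mice with shared numbers are unrelated. The names of 3 of the 4 erythroid mice begin with 2-3, so these 4 mice may hold only 2 independent leukemias, and p-values measure only the spread between these mice.

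Cholesterol is built from acetyl-CoA through mevalonate, isoprenoids, squalene and lanosterol. The membrane-bound factor SREBP-2, encoded by Srebf2, is processed when membrane sterol is low and then turns on most genes of the pathway. Proliferating blood cells, leukemic ones included, need sterols for new membranes and isoprenoids for protein prenylation. Idi1 interconverts isopentenyl and dimethylallyl pyrophosphate, and Fdps joins these units into farnesyl pyrophosphate. Sqle epoxidises squalene, and Lss closes the epoxide into lanosterol. Cyp51 removes the 14-alpha methyl group of lanosterol, and Dhcr7 reduces a late sterol to cholesterol.

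Promoter windows are shown for Cyp51, for which mouse 4-3 was the highest, for Idi1, which was detected on every labelled array, and for Lss, the member that passed a test between types. The windows are 300 bases long, from 250 bases before to 50 bases after the gene start, on the gene's strand, from RefSeq for the build GRCm38.p6. Of the 8 genes, 5 matched an entry there, while Sqle, Fdps and Fdft1 are named only. The windows lie at chr5:4104648-4104947 (minus strand) for Cyp51, chr13:8885356-8885655 (plus strand) for Idi1 and chr10:76531355-76531654 (plus strand) for Lss. Capitals mark CCAAT boxes (CCAAT or its reverse complement ATTGG).
Cyp51: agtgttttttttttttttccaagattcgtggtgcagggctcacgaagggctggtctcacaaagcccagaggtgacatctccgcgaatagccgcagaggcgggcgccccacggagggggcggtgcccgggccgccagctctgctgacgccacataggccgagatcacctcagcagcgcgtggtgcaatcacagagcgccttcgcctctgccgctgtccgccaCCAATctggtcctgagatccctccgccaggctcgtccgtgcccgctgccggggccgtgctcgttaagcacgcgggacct
Idi1: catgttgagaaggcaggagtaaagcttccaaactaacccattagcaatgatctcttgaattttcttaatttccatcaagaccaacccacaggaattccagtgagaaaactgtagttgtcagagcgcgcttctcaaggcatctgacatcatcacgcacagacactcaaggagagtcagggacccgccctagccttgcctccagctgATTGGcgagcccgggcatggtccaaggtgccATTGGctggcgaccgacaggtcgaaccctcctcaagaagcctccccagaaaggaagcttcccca
Lss: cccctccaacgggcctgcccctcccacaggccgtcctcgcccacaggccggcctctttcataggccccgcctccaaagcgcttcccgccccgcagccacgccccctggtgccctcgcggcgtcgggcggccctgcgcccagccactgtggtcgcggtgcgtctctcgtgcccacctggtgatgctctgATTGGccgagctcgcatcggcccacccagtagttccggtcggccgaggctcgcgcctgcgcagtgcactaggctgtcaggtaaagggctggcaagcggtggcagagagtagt

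The motif TCACNCCAC, a classical sterol regulatory element searched on both strands, was found in 1.24% of 32851 mouse promoter windows. It was in none of the windows of Cyp51, Idi1, Lss and Dhcr7. The window of Hmgcs1, whose expression is not analysed here, held 1 copy at position -137 from the gene start. CCAAT boxes were present in 37.4% of all windows: Cyp51 had 1 at -29, Idi1 had 2 at -45 and -14, and Lss had 1 at -62. The GC box GGGCGG, searched on both strands, was in 35.7% of all windows and in those of Cyp51 (1 copy), Idi1 (1 copy) and Lss (2 copies). None of these motifs overlapped in the windows shown. A match here describes letters and not a bound site.

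Signals are given as normalised log2 signal per mouse, so that 1 unit is a factor of 2 in signal. Probes differ in how strongly they bind, and levels are compared between mice for the same probe only. An array detected between 7382 and 12944 of the 25697 probes at a detection p under 0.05. The lowest numbers came from 2 erythroid arrays, 7382 for mouse 5-5 (its second array) and 7554 for mouse 2-3-2, against 11278 to 12944 on T-cell arrays and 11699 for mouse 4-3. Results between types are therefore also given without those 2 weak arrays. The members' probes rested on 23 to 55 beads an array, with a bead standard error of 2.11% to 6.79% of the intensity. Idi1 and the brighter Sqle probe were detected on all 14 labelled arrays, Fdps on 12, Lss on 11, Dhcr7 on 10 and Cyp51 on 9.

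The labels were checked against marker genes, as the mean log2 signal of each list per mouse. T-cell markers (9 of 10 measured) stood at 5.37 in mouse 4-3 and at 4.99 to 5.88 in erythroid mice, against 7.17 to 9.30 in T-cell mice. Erythroid markers (12 of 12) stood at 8.61 in mouse 4-3 and at 8.70 to 9.43 in erythroid mice, against 4.95 to 8.32 in T-cell mice. Mouse 4-3 therefore lay just below the erythroid mice and above all T-cell mice in erythroid markers, while its label is undifferentiated. Proliferation markers (11 of 13) stood at 8.60 in mouse 4-3, 8.30 to 8.91 in erythroid mice and 7.74 to 8.83 in T-cell mice. Macrophage markers (10 of 12) varied within the types, with 5.89 in mouse 4-3, 5.12 to 7.60 in erythroid mice and 4.86 to 7.49 in T-cell mice. Granulocyte markers (8 of 10) were at 6.28 in mouse 4-3, 5.20 to 9.03 in erythroid mice and 5.00 to 9.99 in T-cell mice. B-cell markers (4 of 7) were at 4.43 in mouse 4-3, 4.47 to 6.03 in erythroid mice and 4.45 to 7.37 in T-cell mice. Markers of stroma and endothelium (4 of 8) were at 4.77 in mouse 4-3, 4.57 to 4.87 in erythroid mice and 4.79 to 5.91 in T-cell mice. Mouse 4-3 thus lay just below the lowest T-cell mouse in both lists, with median differences from T-cell mice of -1.31 and -0.54 and 0 of 4 markers of either list past the limma test, also at an unadjusted p under 0.05. The part of such cells in the results below was not tested.

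In isoprenoid synthesis, the Idi1 probe (ILMN_2590923) gave 11.24 in mouse 4-3, and 11.30, 9.35, 11.25 and 11.64 in erythroid mice 2-3, 5-5, 2-3-2 and 2-3-3. In T-cell mice 2, 5, 4-1, 2-2, 5-1, 4-2 and 5-3 it gave 9.71, 9.71, 11.07, 11.49, 10.58, 8.87 and 9.21. Mouse 4-3 and all erythroid mice but 5-5 sat in the upper part of the range, together with T-cell mice 4-1 and 2-2, so the types overlapped. The erythroid mean was 10.88 ± 1.04 (SD, n = 4) and the T-cell mean 10.09 ± 0.97 (SD, n = 7). The difference, erythroid minus T-cell, was 0.79 ± 0.55 (SE) and did not pass the test (limma adjusted p = 0.365). In unsorted spleen, fewer cells of a type and less RNA per cell cannot be told apart.

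Fdps (ILMN_1225730) gave 7.79 in mouse 4-3, and 7.36, 5.64, 4.51 and 6.52 in the erythroid mice in the same order. The T-cell mice gave 6.41, 5.81, 6.22, 6.94, 6.63, 5.57 and 5.88. Mouse 4-3 was the highest of the 12 mice, and the erythroid mice lay on both sides of the T-cell range. Their spread was wider than that of the T-cell mice, at 6.01 ± 1.22 (SD, n = 4) against 6.21 ± 0.49 (SD, n = 7). The probe was not detected on the array of mouse 2-3-2, nor on the second array of mouse 5-5. The erythroid minus T-cell difference was -0.20 ± 0.45 (SE, limma adjusted p = 0.804), and without the 2 weak arrays it turned to 0.68 (limma adjusted p = 0.193).

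**Figure D1:**
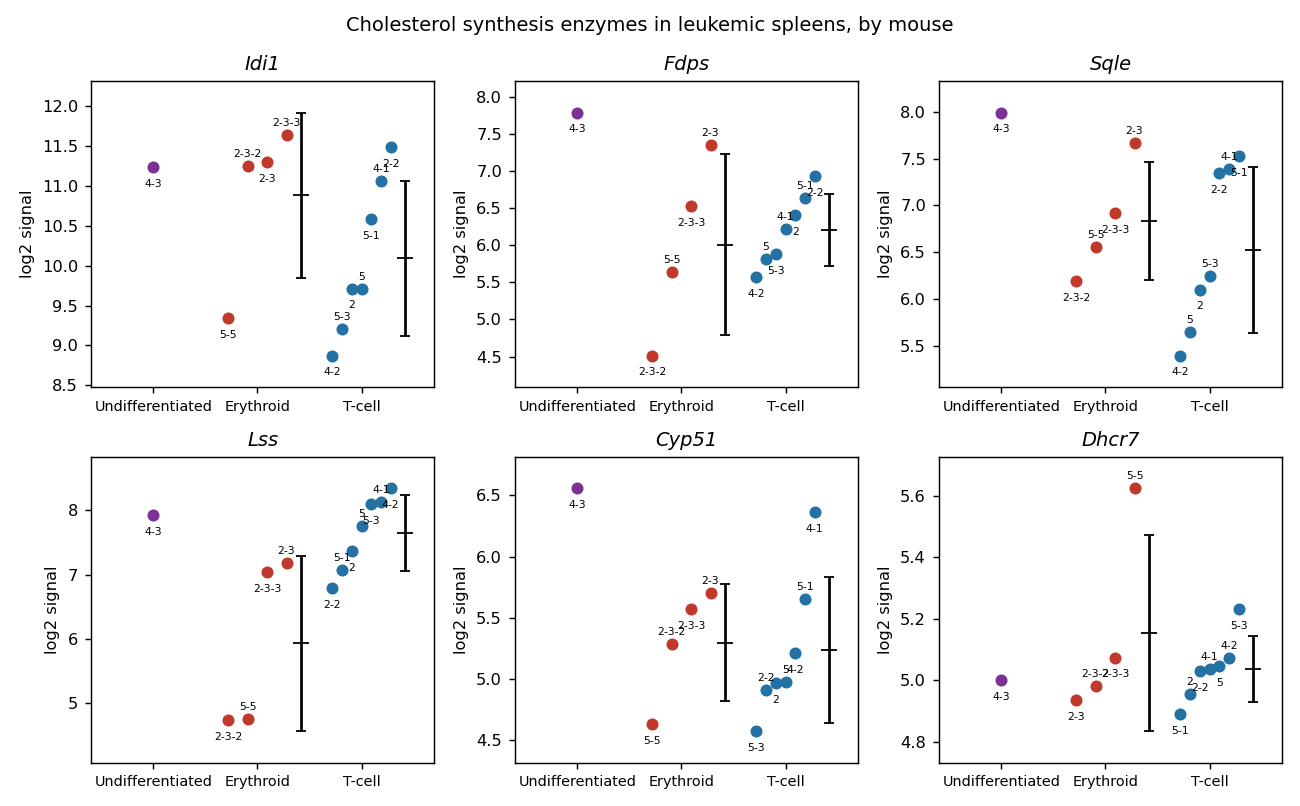
Normalised log2 signal of each measured cholesterol synthesis enzyme, 1 point per mouse, labelled by mouse, for undifferentiated (purple), erythroid (red) and T-cell (blue) leukemias; bars beside the points give the mean and SD of the mice of a type, and each panel has its own axis. Mouse 4-3 is the highest point for Fdps (7.79), Sqle (7.99) and Cyp51 (6.56), and for Lss the erythroid mice 5-5 and 2-3-2 stand apart at 4.75 and 4.73.

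At the squalene step, the brighter Sqle probe (ILMN_2737163) gave 7.99 in mouse 4-3, and 7.66, 6.55, 6.19 and 6.92 in erythroid mice. T-cell mice gave 6.10, 5.64, 7.39, 7.35, 7.52, 5.39 and 6.24. Mouse 4-3 was highest, erythroid mouse 2-3 came next, and T-cell mice formed an upper set (5-1, 4-1 and 2-2) and a lower set (5-3, 2, 5 and 4-2) with the erythroid mice spread across both. The erythroid minus T-cell difference was 0.31 ± 0.45 (SE, limma adjusted p = 0.686). The dimmer Sqle probe (ILMN_2600348) was detected on 7 of 14 arrays, with 2 of 5 erythroid and 4 of 8 T-cell arrays among them. It gave 5.55 in mouse 4-3, 5.20 ± 0.34 in erythroid mice (SD, n = 4) and 4.73 ± 0.41 in T-cell mice (SD, n = 7). Both means thus rest in part on values at background. Both probes put mouse 4-3 above either mean and the erythroid mean above the T-cell mean, with no difference past the threshold. For the dimmer probe the erythroid minus T-cell difference was 0.46 ± 0.26 (SE, limma adjusted p = 0.264).

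Lss (ILMN_2614161) was the 1 of 6 members that passed the test between erythroid and T-cell leukemias, against 10.3% of all genes tested, and the direction was lower, as for 6.43% of all genes. It gave 7.92 in mouse 4-3, and 7.18, 4.75, 4.73 and 7.04 in erythroid mice. T-cell mice gave 7.36, 7.75, 8.13, 6.79, 7.07, 8.34 and 8.09. Erythroid mice 5-5 and 2-3-2 lay more than 2 log2 units below every other mouse, while erythroid mice 2-3 and 2-3-3 lay inside the T-cell range and mouse 4-3 near its upper end. Lss fell by 1.72 ± 0.51 (SE) on the log2 scale in erythroid mice, 3.30-fold lower than in T-cell mice, with a 95% interval from -2.83 to -0.62 and a limma adjusted p = 0.0495. The mean was 5.93 ± 1.37 in erythroid mice (SD, n = 4) and 7.65 ± 0.59 in T-cell mice (SD, n = 7).

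The call for Lss depended on which mice entered the fit, and mice 5-5 and 2-3-2 set the size of the difference. The probe was not above the negative controls on the array of mouse 2-3-2, with a detection p of 0.303, nor on either array of mouse 5-5, with detection p-values of 0.0539 and 0.575. It was detected on the other 11 labelled arrays. Mouse 2-3-2 and the second array of mouse 5-5 are the 2 weak arrays, whereas the first array of mouse 5-5 detected 11580 probes. Without the 2 weak arrays the difference was -1.25 (limma adjusted p = 0.134). Without mouse 5-5 it was -1.33 (limma adjusted p = 0.152), and without mouse 2-3-2 it was -1.33 (limma adjusted p = 0.139). The call also ended without T-cell mouse 2, 5, 4-1, 4-2 or 5-3, with 0.0784 as the lowest limma adjusted p. It kept its sign in 26 of 26 alternative settings and passed the threshold in 8 of them. Within the arrays numbered 1 to 8 in the labels the difference was -1.33 (limma adjusted p = 0.298), and within those numbered 9 to 16 it was -2.42 (limma adjusted p = 0.138).

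**Figure D2:**
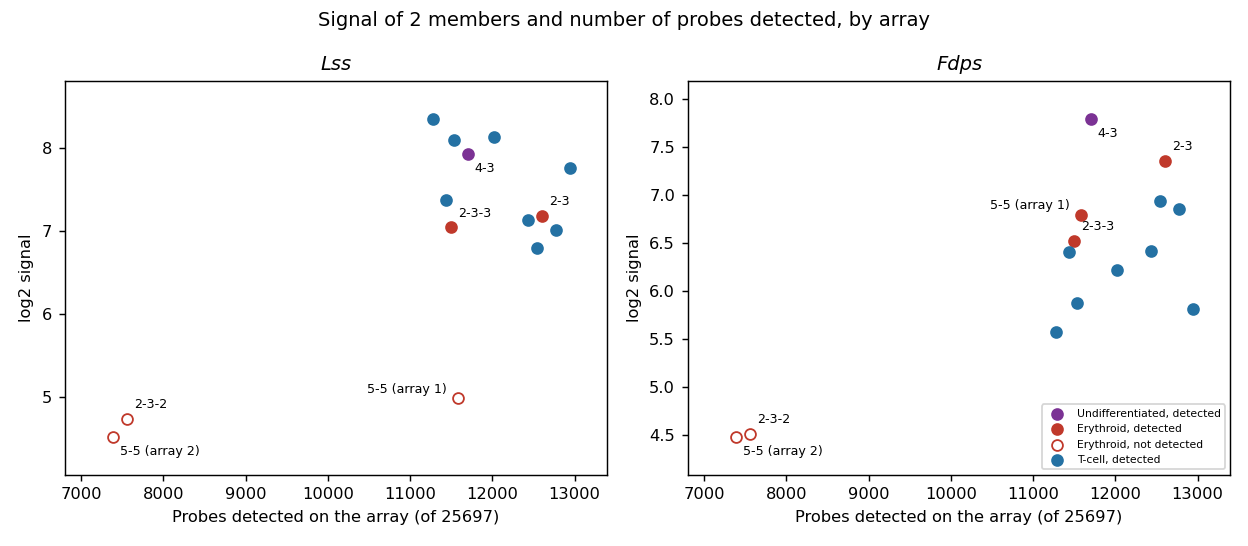
Normalised log2 signal of Lss and Fdps on each of the 14 labelled arrays against the number of probes detected on that array; purple, red and blue are undifferentiated, erythroid and T-cell leukemias, and open points were not detected. The second array of mouse 5-5 (7382 probes) and that of mouse 2-3-2 (7554 probes) are low for both genes, whereas the first array of mouse 5-5 is low for Lss (4.98) and not for Fdps (6.80).

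Cyp51 (ILMN_2688075) gave 6.56 in mouse 4-3, and 5.70, 4.63, 5.28 and 5.57 in erythroid mice. T-cell mice gave 4.97, 4.97, 6.36, 4.91, 5.65, 5.21 and 4.58. Mouse 4-3 was highest, T-cell mouse 4-1 lay just below it, and the other mice of both types shared the range beneath. The probe was detected on 2 of 5 erythroid and 6 of 8 T-cell arrays. Part of that range therefore lies at background, and so do parts of both means. The erythroid minus T-cell difference was 0.06 ± 0.34 (SE, limma adjusted p = 0.923), with a 95% interval from -0.66 to 0.79.

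Dhcr7 (ILMN_2660471) gave 5.00 in mouse 4-3, and 4.94, 5.62, 4.98 and 5.07 in erythroid mice. T-cell mice gave 4.96, 5.05, 5.04, 5.03, 4.89, 5.07 and 5.23. Apart from mouse 5-5, all mice lay between 4.89 and 5.23, and the probe was not detected on 4 of 14 arrays. The erythroid minus T-cell difference was 0.12 ± 0.20 (SE, limma adjusted p = 0.732). The value of mouse 5-5 came from its second array (6.60), a weak array, against 4.65 on its first.

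The 2 arrays of a mouse show how far a member's value can move between hybridisations. For mouse 5-1 the 7 probes differed by at most 0.45, with Idi1 at 10.80 and 10.36. For mouse 5-5 the second array differed from the first by -2.31 for Fdps, -1.17 for Idi1, 1.96 for Dhcr7 and 1.99 for the dimmer Sqle probe. The brighter Sqle probe gave 6.54 and 6.56 after normalization, while its intensity before it was 175.7 and 109.4. On the second array, a weak one, the dimmer Sqle probe gave 6.49 at an intensity of 108.9. The small gap of the brighter probe thus does not show that its signal was stable. Lss, at 4.98 and 4.52, was not detected on either array, so its small gap says little about how far a detected value can move. For Fdps the gap between the arrays of mouse 5-5 was larger than the difference between erythroid and T-cell means.

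Between erythroid and T-cell leukemias, the other 5 members did not pass the test, and no member had all erythroid mice on the same side of all T-cell mice. Over all genes, 2.51% had every erythroid mouse above every T-cell mouse and 4.71% had every erythroid mouse below. Without the 2 weak arrays Idi1 differed by 0.87, Sqle by 0.52, Cyp51 by 0.14 and Dhcr7 by -0.15, and 0 of 6 members passed. The median difference of the 6 members was 0.09, against -0.03 over all genes tested. The direction of Sqle and Dhcr7 turned with median scaling, and that of Fdps and Dhcr7 with cyclic loess. Median scaling moved the median of all genes to -0.22 for erythroid minus T-cell mice, to 0.23 for mouse 4-3 minus T-cell mice and to 0.44 for mouse 4-3 minus erythroid mice.

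Mouse 4-3, the undifferentiated leukemia, was compared with each type in the same fit, with the assumption that it varies like the other mice. Both comparisons share mouse 4-3 and are not independent. Against T-cell leukemias 0 of 6 members passed, where 0.0191% of all genes did, and 1 member (Cyp51) had an unadjusted limma p under 0.05, against 7.22% of all genes. The largest differences were 1.58 ± 0.77 (SE) for Fdps (limma adjusted p = 0.734), 1.47 ± 0.78 for Sqle (limma adjusted p = 0.785) and 1.32 ± 0.57 for Cyp51 (limma adjusted p = 0.629). Idi1 differed by 1.15 ± 0.93, Lss by 0.27 ± 0.87 and Dhcr7 by -0.04 ± 0.33, each with a limma adjusted p of 0.999. The intervals were wide: that of Fdps ran from -0.09 to 3.25 and that of Cyp51 from 0.09 to 2.56.

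Against erythroid leukemias 0 of 6 members passed, where 0.00955% of all genes did, and 2 members (Lss and Fdps) had an unadjusted limma p under 0.05, against 4.72% of all genes. Lss differed by 2.00 ± 0.91 (SE), Fdps by 1.78 ± 0.81, Cyp51 by 1.26 ± 0.60 and Sqle by 1.16 ± 0.81, each with a limma adjusted p of 0.938. Idi1 differed by 0.36 ± 0.97 (limma adjusted p = 0.969) and Dhcr7 by -0.15 ± 0.35 (limma adjusted p = 0.962). Without the 2 weak arrays Lss differed by 1.52, Cyp51 by 1.18, Sqle by 0.95, Fdps by 0.90, Idi1 by 0.28 and Dhcr7 by 0.12. The median over the members was 1.24 against T-cell mice and 1.21 against erythroid mice, beside 0.02 for all genes in both comparisons.

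**Figure D3:**
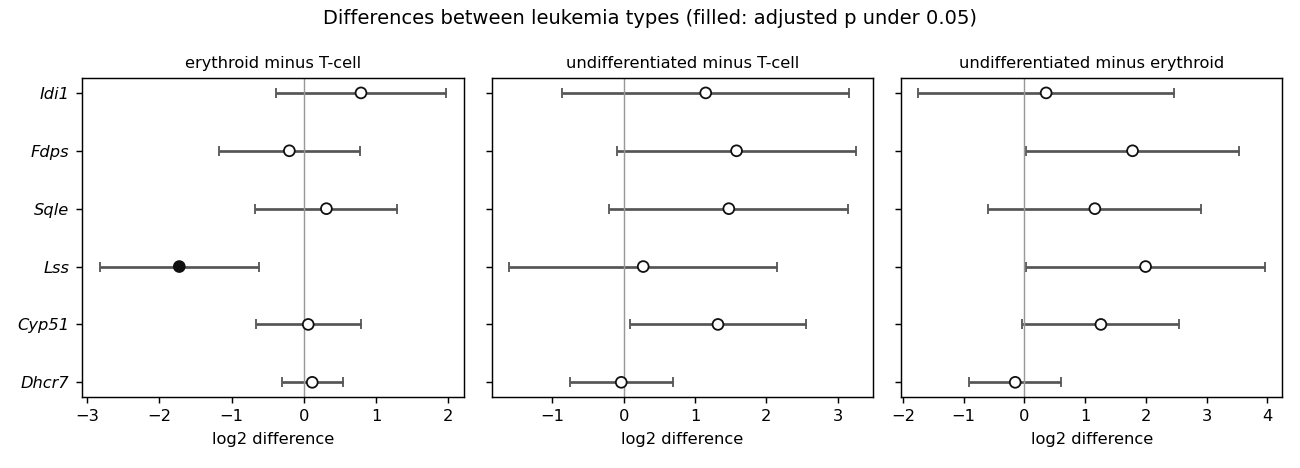
Differences in log2 signal for the 6 measured members, with 95% intervals from the limma fit, for erythroid minus T-cell leukemias (left) and for the undifferentiated mouse minus T-cell (middle) or minus erythroid mice (right); filled points have an adjusted p under 0.05 and each panel has its own axis. Lss is the filled point, at -1.72, and 5 of 6 members lie above 0 in both panels of mouse 4-3 although no point is filled there.

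By rank, mouse 4-3 was the highest of the 12 mice for 3 of 6 members (Fdps, Sqle and Cyp51), against 7.07% of all genes. It lay 1 log2 unit or more above the means of both other types for 3 of 6 members, against 2.57% of all genes. With median scaling it was highest for 4 of 6 members, Lss being added, where 11.8% of all genes had it highest. The 6 probes share 1 array of this mouse, so these ranks are a description of that array. Averaged over the 6 members, mouse 4-3 stood at 7.75, followed by T-cell mouse 4-1 at 7.37 and erythroid mice 2-3 and 2-3-3 at 7.36 and 7.13. At the low end were erythroid mice 2-3-2 at 6.16 and 5-5 at 6.09, the mice with the weak arrays. The other T-cell mice ran from 6.41 in mouse 4-2 to 7.08 in mouse 2-2. For Idi1, Fdps, Sqle and Cyp51 the SD within each type exceeded the difference between the erythroid and T-cell means.

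Among T-cell mice, the leading number of the name (2, 4 or 5) was tested as a grouping whose meaning the labels do not give. No member passed (0 of 6, against 0.00955% of all genes, and also 0 of 6 at an unadjusted p under 0.05, against 2.61%), and unadjusted p-values from the limma F test ran from 0.197 for Cyp51 to 0.970 for Dhcr7. Cyp51 averaged 5.79 in mice of number 4, against 4.94 for number 2 and 5.07 for number 5. Lss averaged 8.24, 7.08 and 7.64 in the mice of numbers 4, 2 and 5. The spread was estimated over all 12 mice, in a model with a mean for each type and leading number that left 6 residual degrees of freedom, which limits this comparison.

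The other steps of cholesterol synthesis were described from a list of 12 genes, 9 of them measured, while Mvk is not analysed here. Tm7sf2 and Sc5d did not pass the filter on detection. Between erythroid and T-cell leukemias 0 of 9 passed, against 10.3% of all genes. An unadjusted limma p under 0.05 was found for 2 (Nsdhl and Lbr), against 28.2% of all genes, and the median difference was -0.12. In mouse 4-3 all 9 lay above the T-cell mean, with a median difference of 0.67, and 7 of 9 above the erythroid mean, with a median of 0.58. The median over all genes was 0.02 in both comparisons. In these comparisons 0 of 9 passed in limma, and at an unadjusted p under 0.05 there were 0 against T-cell mice and 1 (Msmo1) against erythroid mice, where 7.22% and 4.72% of all genes were. Mouse 4-3 was the highest of the 12 mice for Pmvk, a mevalonate pathway kinase, and for Msmo1, the sterol C4 methyl oxidase. These were 2 of 9 genes, against 7.07% of all genes, and both were named after their values were seen. Msmo1 gave 7.23 in mouse 4-3, 4.36 to 6.48 in erythroid mice and 5.10 to 6.64 in T-cell mice. The Msmo1 probe was detected on 2 of 5 erythroid and 8 of 8 T-cell arrays, so its erythroid range lies in part at background. Pmvk gave 7.20 in mouse 4-3, 5.55 to 7.06 in erythroid mice and 5.30 to 6.80 in T-cell mice. The undifferentiated minus T-cell differences were 1.47 for Msmo1 (limma adjusted p = 0.767) and 1.13 for Pmvk (limma adjusted p = 0.773).

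Of 10 genes listed under SREBP control, 1 was higher and 2 were lower in erythroid than in T-cell leukemias, against 3.86% of all genes higher and 6.43% lower. A part of Ubxn8, 1 of the 2 lower genes, in SREBP control was not established here, so the count holds for the list as drawn up. Rnf139, a ubiquitin ligase of the endoplasmic reticulum with a sterol-sensing domain, rose by 1.21 ± 0.23 (SE, limma adjusted p = 0.00958), with 8.22 to 9.20 in erythroid mice and 7.10 to 7.84 in T-cell mice. Srebf1, which encodes the SREBP-1 factors, fell by 0.70 ± 0.20 (SE, limma adjusted p = 0.0458), with 8.31 to 8.67 in erythroid mice and 8.85 to 9.68 in T-cell mice. Ranges of the 2 types did not overlap for either gene. Over all genes, 2.51% had every erythroid mouse above every T-cell mouse, as Rnf139 did, and 4.71% had every erythroid mouse below, as Srebf1 did. Ubxn8, a UBX-domain protein of the endoplasmic reticulum, fell by 1.07 ± 0.31 (SE, limma adjusted p = 0.0442), but by 0.38 without the 2 weak arrays (limma adjusted p = 0.310). Srebf1 without those arrays differed by -0.70 with a limma adjusted p = 0.0657. With the mean of its probes in place of the brightest, Srebf1 differed by -0.59 (limma adjusted p = 0.0584). It passed in 9 of 26 alternative settings. Leaving out a single mouse ended the call of Srebf1 for 9 of 12 mice (all but 2-2, 5-1 and 4-3) and that of Ubxn8 for 9 of 12 mice (all but 2-3, 2-2 and 4-3), with limma adjusted p-values up to 0.0898 and 0.103, whereas Rnf139 passed whichever mouse was left out. Rnf139 lost its call in 4 of 26 alternative settings: with median scaling it differed by 0.83 (limma adjusted p = 0.125), within arrays 1 to 8 by 1.07 (limma adjusted p = 0.165), within arrays 9 to 16 by 1.23 (limma adjusted p = 0.115), and with the leading number as a block by 1.18 (limma adjusted p = 0.0754). Srebf1 and Ubxn8 did not pass in any of these 4 settings either. Ubxn8 was detected on 3 of 5 erythroid arrays.

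Mouse 4-3 had the highest signal of the 12 mice for 2 of 10 genes of this list, Srebf1 and Srebf2, against 7.07% of all genes. In limma 0 of 10 passed in either comparison of mouse 4-3, with 1 at an unadjusted p under 0.05 in each (Rnf139 against T-cell mice, Srebf1 against erythroid mice), where 7.22% and 4.72% of all genes were. Srebf1 gave 9.98 in mouse 4-3, above both ranges just given. Srebf2 gave 6.17 in mouse 4-3, 5.02 to 5.75 in erythroid mice and 4.95 to 6.10 in T-cell mice. The undifferentiated minus T-cell difference was 0.73 for Srebf1 (limma adjusted p = 0.708) and 0.86 for Srebf2 (limma adjusted p = 0.761). Against erythroid mice Srebf1 differed by 1.44 (limma adjusted p = 0.604). Insig1, which retains SREBP in the endoplasmic reticulum and is itself a target of it, gave 10.15 in mouse 4-3, 9.16 to 10.94 in erythroid mice and 8.67 to 10.09 in T-cell mice.

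In the list of cholesterol uptake, storage and export, 14 of 16 genes were measured, and between erythroid and T-cell leukemias 1 was higher and 1 lower, so that 2 of 14 passed against 10.3% of all genes. Soat1, which esterifies cholesterol for storage, fell by 2.20 ± 0.47 (SE, limma adjusted p = 0.0137) in erythroid mice, with 4.45 to 6.60 in erythroid mice and 6.53 to 8.28 in T-cell mice. Its ranges overlapped at their edges, and the probe was detected on 2 of 5 erythroid arrays, against 8 of 8 T-cell arrays, so the erythroid level lies largely at background and the size of the fall depends on it. Without background correction the difference was -0.96 (limma adjusted p = 0.0272). It passed in 23 of 25 alternative settings and lost its call within arrays 1 to 8, at -1.25 (limma adjusted p = 0.305), and with the leading number as a block, at -2.11 (limma adjusted p = 0.0921). Without the 2 weak arrays it differed by -1.84 (limma adjusted p = 0.0481). Soat1 was at 5.00 in mouse 4-3, below the T-cell range. Nr1h3, the oxysterol-sensing nuclear receptor LXR-alpha, rose by 1.31 ± 0.37 (SE, limma adjusted p = 0.0408), with 5.65 to 7.90 in erythroid mice and 4.73 to 5.35 in T-cell mice. The call of Nr1h3 ended when any single mouse of 8 was left out (2, 2-3, 5, 4-1, 2-2, 5-5, 4-2 or 5-3), with limma adjusted p-values up to 0.0838, and without mouse 5-5 the difference was 0.81. It passed in 11 of 25 alternative settings, and without background correction the difference was 0.48 (limma adjusted p = 0.0972). Nr1h3 is also expressed in macrophages, whose markers ranged as given above.

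In the same list mouse 4-3 was highest for 2 of 14 genes, against 7.07% of all genes, named after their values were seen: Stard4, a cytosolic sterol carrier, and Npc2, a lysosomal cholesterol carrier. Stard4 gave 6.32 in mouse 4-3, 4.50 to 5.86 in erythroid mice and 4.62 to 5.67 in T-cell mice. The Stard4 probe was detected on 3 of 5 erythroid and 6 of 8 T-cell arrays, so both ranges lie in part at background. Npc2 gave 11.16 in mouse 4-3, 9.90 to 10.99 in erythroid mice and 10.78 to 11.12 in T-cell mice, so the gap was small. The undifferentiated minus T-cell difference was 1.14 ± 0.53 for Stard4 (SE, limma adjusted p = 0.688) and 0.17 for Npc2 (limma adjusted p = 0.999). In limma 0 of 14 passed in either comparison, with 1 at an unadjusted p under 0.05 against T-cell mice (Soat1; 7.22% of all genes) and 0 against erythroid mice (4.72%). The median difference over the list was 0.03 from T-cell mice and 0.07 from erythroid mice.

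**Figure D4:**
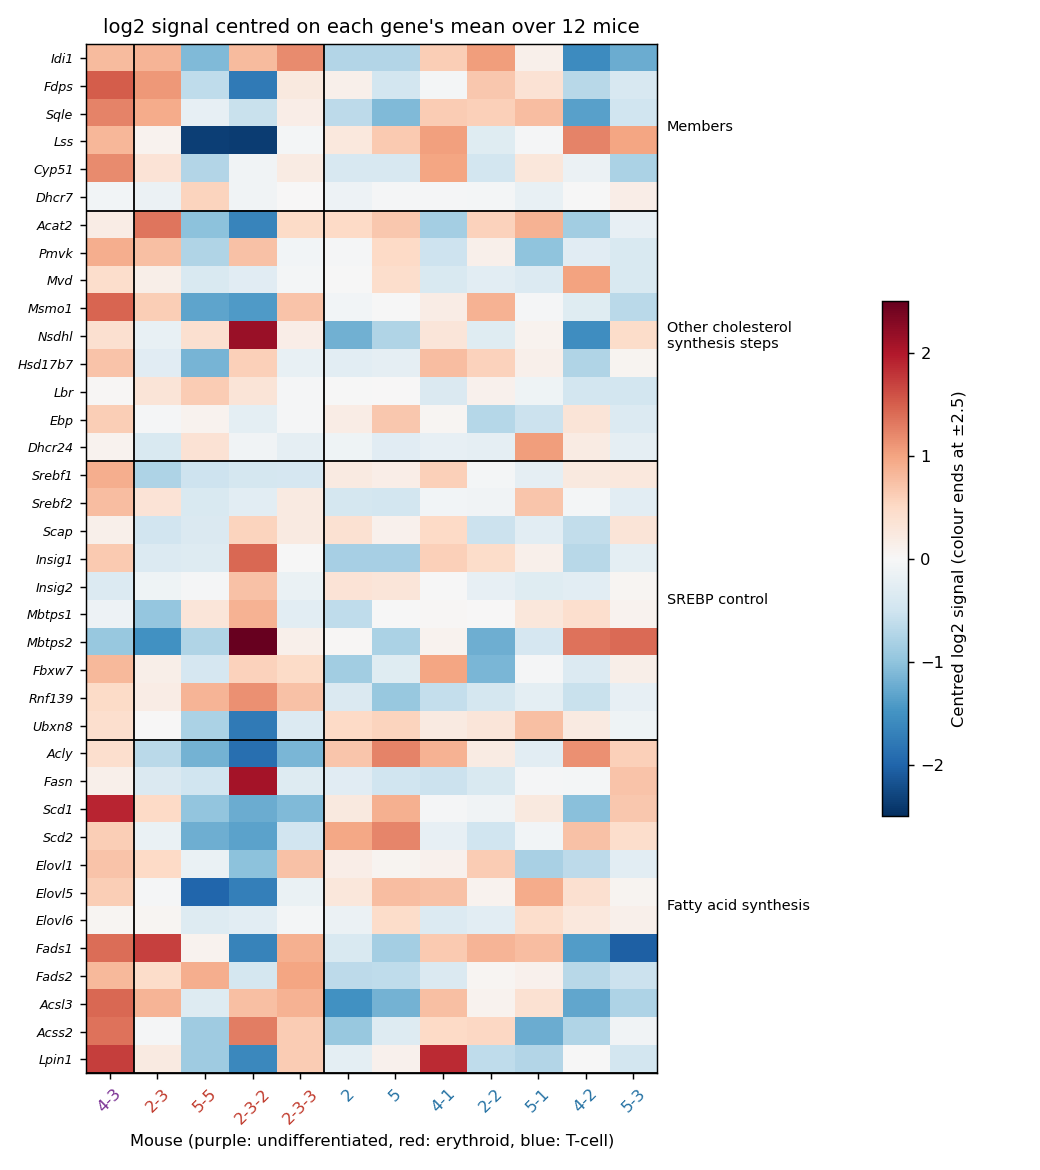
Normalised log2 signal of the members, the other steps of cholesterol synthesis, SREBP control and fatty acid synthesis in the 12 labelled mice, each gene centred on its mean over the mice (red above, blue below, colour ends at ±2.5). The column of mouse 4-3, at the left, is above the mean for 5 of 6 members, and the erythroid columns 5-5 and 2-3-2 hold the lowest Lss cells.

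Fatty acid synthesis, part of which is also under SREBP, was described with 12 of 18 genes measured. Between erythroid and T-cell leukemias 2 of 12 were lower, against 6.43% of all genes, and none was higher. Acly, which makes cytosolic acetyl-CoA from citrate, fell by 1.86 ± 0.32 (SE, limma adjusted p = 0.00599), with 8.20 to 9.40 in erythroid mice and 9.82 to 11.32 in T-cell mice. Mouse 4-3 gave 10.49, inside the T-cell range. Without the 2 weak arrays Acly differed by -1.46 (limma adjusted p = 0.0246). Elovl5, a fatty acid elongase, fell by 1.44 ± 0.38 (SE, limma adjusted p = 0.0319), and by 0.80 without the 2 weak arrays (limma adjusted p = 0.0820). Its call ended when any single mouse of 6 was left out (2, 5, 4-1, 5-5, 4-2 or 2-3-2) and held in 13 of 25 alternative settings, while Acly passed whichever mouse was left out. Acly lost its call within arrays 1 to 8, at -1.24 (limma adjusted p = 0.187), within arrays 9 to 16, at -2.03 (limma adjusted p = 0.0852), and with the leading number as a block, at -1.69 (limma adjusted p = 0.0601). Scd2, a stearoyl-CoA desaturase, differed by -1.17 (limma adjusted p = 0.0571).

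In mouse 4-3 the fatty acid list had a median of 1.02 above T-cell mice and 1.13 above erythroid mice, with 0 of 12 past the limma test and, at an unadjusted p under 0.05, 4 against T-cell mice, where 7.22% of all genes were, and 5 against erythroid mice, where 4.72% were. For Acly and Elovl5, both lower in erythroid than in T-cell mice, mouse 4-3 ranked 6 and 4 of the 12 mice. A gap to erythroid mice in this list thus need not mean a high level in mouse 4-3. Scd1, a desaturase, gave 7.64 in mouse 4-3, 4.50 to 6.24 in erythroid mice and 4.70 to 6.62 in T-cell mice. The Scd1 probe was detected on 1 of 5 erythroid and 7 of 8 T-cell arrays, so its erythroid range lies largely at background. Mouse 4-3 was highest for Scd1 and for Acsl3 and Acss2, which activate fatty acids and acetate, and these 3 of 12 genes, against 7.07% of all genes, were named after their values were seen. The undifferentiated minus T-cell differences were 1.78 for Scd1 (limma adjusted p = 0.523), 1.95 for Acsl3 (limma adjusted p = 0.561) and 1.70 for Acss2 (limma adjusted p = 0.636). Mouse 4-3 had the highest list mean for the members, the other cholesterol steps and fatty acid synthesis, and the second highest for SREBP control.

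The non-sterol branch of the mevalonate pathway makes prenyl groups, dolichol and ubiquinone. Of its 15 listed genes 13 were measured, and 0 of 13 passed in any of the 3 comparisons in limma, also at an unadjusted p under 0.05. Between erythroid and T-cell mice 10.3% of all genes passed, and 28.2% had an unadjusted limma p under 0.05. For mouse 4-3 the unadjusted shares of all genes were 7.22% against T-cell mice and 4.72% against erythroid mice. Mouse 4-3 was highest for 0 of 13, against 7.07% of all genes. The median difference was 0.01 for erythroid minus T-cell mice, 0.10 for mouse 4-3 minus T-cell mice and -0.08 for mouse 4-3 minus erythroid mice.

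The genes most alike to the members were taken as the 8 with the highest Pearson r, over the 12 mice, with the mean of the centred members, and 7 of them are given. These were Orc2 (r = 0.945), Zfp143 (0.941), Abcd3 (0.931), Dlst (0.916), Khk (0.916), Septin8 (0.915) and Cdk6 (0.911). Orc2 and Zfp143 were detected on 8 of 14 labelled arrays, and Abcd3 and Septin8 on 10, so their r rests in part on values at background. The points share arrays and depth, and with 12 mice such values describe these libraries only. Abcd3, a peroxisomal transporter, gave 9.09 in mouse 4-3, 5.01 to 7.47 in erythroid mice and 4.67 to 8.21 in T-cell mice. Dlst, a subunit of the oxoglutarate dehydrogenase complex, was detected on all 14 arrays and gave 10.17 in mouse 4-3, 9.30 to 10.05 in erythroid mice and 9.15 to 9.97 in T-cell mice.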

How the data were processed

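RNA from unsorted spleen cells was amplified and hybridised to 15 bead arrays, of which 14 had a type label. The authors deposited, per probe and array, a mean bead intensity, a detection p-value against the negative controls, the number of beads and the standard error of the bead signal, per the file headers. A deposited table of processed log2 values served as an alternative, and its lowest correlation of an array with the values used here was 0.999978. It was made with limma and R 3.0.2 per the submitters' processing notes. Its method of normalization is not stated there.

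Intensities were background-corrected with detection p-values, offset by 16, quantile-normalised and logged (neqc, limma 3.58.1, R 4.3.3). Probes with detection p under 0.05 on at least 3 labelled arrays were kept, leaving 14432 of 25697 probes and 10474 genes. The brightest probe stood for a gene, and symbols were brought up to date through RefSeq. Arrays of a mouse were averaged. Types were compared over 12 mice with lmFit and eBayes of limma, two-sided, with Benjamini-Hochberg adjustment over all genes and a threshold of 0.05. The fit was tested on simulated data. The number of mice limits precision. The authors' probes were not matched to transcripts here.

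The members and gene lists were chosen with earlier results of these data known. Named were all members, pathway genes past the threshold (up to 5 per list and comparison), Srebf1, Srebf2, Insig1 and Scd2, and genes from the 8 most alike. Some genes of the lists are not reported here. Alternatives covered normalization, background, filter, probes, weak arrays, array number, leading number, weights and leaving out each mouse. The unlabelled array entered the normalization only.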

Additional observations from a re-analysis of the deposited data

Results flagged for a closer look

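Among 34 groups of mice, 2 held a mouse far from the others of its group by Dixon's test, where chance gives about 1 in 20 groups. Idi1 was at 9.35 in erythroid mouse 5-5, against 11.25 to 11.64 in the other erythroid mice. Its 2 arrays gave 9.93 and 8.76, both below those mice. Srebf2 was at 6.10 in T-cell mouse 5-1, against 4.95 to 5.36 in the other T-cell mice.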

How the results depend on the processing

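Between erythroid and T-cell leukemias 1078 genes passed. The count was 427 with median scaling, 579 without a filter and also without the 2 weak arrays, 489 with probes detected on all labelled arrays, 0 within arrays 1 to 8, 180 within arrays 9 to 16, 109 with the leading number as a block, 1988 with array weights, and 466 to 1474 when a mouse was left out. Of the members, 0 passed with median scaling, cyclic loess, no background correction, no filter or the first array only. The count was also 0 without the weak arrays, by array number or leading number, and with array weights. Detection on all arrays left only 2 members to test, Idi1 and Sqle, of which 0 passed, so Lss was not tested there. When a mouse was left out, 0 to 1 passed. Undifferentiated minus T-cell gave 2 genes, and 1 with median scaling, no background correction or the number block, 45 with loess, 17 without a filter, 14 with detection on all arrays, 5 with the mean of probes, 8 without the weak arrays, 94 with weights and 0 to 63 without a mouse. Undifferentiated minus erythroid gave 1 gene, and 0 with median scaling, each probe alone or first arrays, 2 with loess, 10 without a filter, 3 with weights and 0 to 9 without a mouse. The leading-number test gave 1 gene, and 0 without background correction or with detection on all arrays, 2 without a filter, 3 without the weak arrays, 13 with weights and 1 to 4 without a mouse.

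Signs that turned in erythroid minus T-cell were those of Sqle (-0.046, median scaling), Fdps (0.35 loess, 0.058 first arrays, 0.68 without weak arrays, 0.052 array number as a block, 0.63 arrays 1 to 8, 0.36 weights), Dhcr7 (-0.095 median scaling, -0.079 loess, -0.14 first arrays, -0.15 without weak arrays, -0.22 arrays 1 to 8), Cyp51 (-0.14 arrays 1 to 8), Insig1 (-0.11 without weak arrays, -0.32 arrays 1 to 8) and Srebf2 (-0.44 arrays 9 to 16). Leaving out a mouse gave -0.65 to 0.30 for Fdps, -0.040 to 0.19 for Dhcr7, -0.074 to 0.28 for Cyp51, -0.023 to 0.57 for Insig1 and -0.043 to 0.21 for Srebf2. In mouse 4-3, Lss minus T-cell became -0.32 with the number block. Against erythroid mice Dhcr7 became 0.047 (median scaling), 0.092 (first arrays) and 0.12 (without weak arrays), and Idi1 -0.10 (weights); leaving out a mouse gave -0.22 to 0.00483 for Dhcr7 and -0.15 to 0.61 for Idi1. The cause of these changes was not tested. None of these differences had passed the test. The leading number of the mouse name could be fitted as a block (109 genes, above). The array number, 1 to 8 or 9 to 16, was fitted as a block too and gave 1100 genes between erythroid and T-cell leukemias. By replicate number, no paired analysis was possible because the replicate numbers in the labels mark 2 arrays of the same mouse, and no mouse carries more than 1 leukemia type.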

Other observations

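The array with neither mouse nor type in its labels entered no comparison. It detected 10840 probes and gave log2 signals of 9.76 for Idi1, 5.30 for Fdps, 7.09 for Sqle, 5.47 for Lss, 4.70 for Cyp51 and 4.86 for Dhcr7. Cyp51 and Dhcr7 were not detected on it, with detection p-values of 0.169 and 0.0952. Its Dhcr7 value lay below all 12 labelled mice, and the other 5 lay within their range.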
